A study of Mus musculus with 2 samples.

Results

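The genes described here encode the cytosolic sensors of foreign or misplaced RNA and of Z-form nucleic acid, with the adaptor that the RNA sensors share. They were chosen by name, as all array rows whose gene symbol was Ddx58, Ifih1, Dhx58, Ddx60, Zbp1 or Mavs, which gave 6 of the 24203 genes measured and 13 array rows. The data are 2 single-colour NimbleGen expression arrays, 1 per group. One array held RNA of LT-HSCs, the long-term stem cells of blood formation, which had been sorted out of wild-type C57BL/6 bone marrow. The other held RNA of the same sorted population from C57BL/6 mice with a knockout of cia-cGAS, a circular RNA. All mice were 8 weeks old, and no treatment is named in the labels. The sources used here do not give how the knockout was made, the sort markers, or the number and pooling of animals. With 1 array per group, no difference has a replicate check, no test between genotypes was possible, and no p-value is given.

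RIG-I (gene Ddx58) and MDA5 (gene Ifih1) are helicases that bind viral double-stranded RNA in the cytosol, RIG-I with a preference for short ends carrying a 5′ triphosphate and MDA5 for long duplexes. Both then pass the signal through their caspase recruitment domains to MAVS, an adaptor on the mitochondrial outer membrane, which activates the kinases TBK1 and IKKε and the transcription factors IRF3 and IRF7 to induce type I interferon. LGP2 (gene Dhx58) is a related helicase without the signalling domains that modulates both sensors, DDX60 is an antiviral helicase of the same broad family, and ZBP1 binds Z-form RNA and DNA and can engage the necroptosis kinase RIPK3. Most of these sensor genes are themselves known as interferon-stimulated genes, through promoter elements bound by the ISGF3 complex and by IRF factors.

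The core of such an interferon-stimulated response element, 2 copies of GAAA with 2 free bases between them, was searched on both strands from 250 bases before to 50 bases after the RefSeq start of each gene (build GRCm38.p6). The promoter table matched 4 of the 6 genes, and the motif was present in 3 of them, Ddx60, Ifih1 and Ddx58. Of all 32851 promoter entries of that length, 3.44% held it, and of their 27025 genes 3.99% held it in at least 1 entry. The sequences that carry the matches follow with the matched letters in capitals, and the Mavs sequence stands beside them as the one without a match. All are written 5′ to 3′ on the strand of the gene.

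Ddx60, the 250 bases before the start, chr8:61927837-61928086, plus strand: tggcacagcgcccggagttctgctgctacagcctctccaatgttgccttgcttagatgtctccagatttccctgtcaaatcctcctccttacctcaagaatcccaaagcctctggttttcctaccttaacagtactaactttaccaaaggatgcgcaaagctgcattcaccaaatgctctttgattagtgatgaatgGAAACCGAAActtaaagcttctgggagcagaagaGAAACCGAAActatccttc
Ifih1, the last 30 bases of the window, after the start, chr2:62646206-62646235, minus strand: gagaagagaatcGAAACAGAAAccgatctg
Ddx58, 30 bases across the start, chr4:40239804-40239833, minus strand: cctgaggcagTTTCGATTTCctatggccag
Mavs, the 250 bases before the start, chr2:131233813-131234062, plus strand: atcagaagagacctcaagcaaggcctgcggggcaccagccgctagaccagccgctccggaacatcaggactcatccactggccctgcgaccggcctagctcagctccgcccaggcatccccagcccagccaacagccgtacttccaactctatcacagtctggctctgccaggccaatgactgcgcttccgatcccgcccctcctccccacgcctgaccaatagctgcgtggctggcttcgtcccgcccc

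Ddx60 held 2 matches on the strand of the gene, with their first letters 53 and 19 bases before the start. Both read GAAACCGAAA. The Ifih1 match, GAAACAGAAA, lay at bases 33 to 42 of the transcript. The Ddx58 match lay at bases 3 to 12 of the transcript and was on the opposite strand, so that it reads TTTCGATTTC along the gene. In a looser core, the final base of the second copy may be any. This core was found in 8.56% of promoter entries and in 9.76% of genes. With it the same 3 genes matched, Ifih1 with 1 further match, and Mavs did not. A match describes these letters in this window and does not show that a factor binds there.

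The sensor genes read far higher in the knockout, and the adaptor gene did not come above background on either array. As a detection floor, each array was given the intensity that 95% of its 1029 olfactory, vomeronasal and taste receptor rows did not exceed. Most of these receptor genes were assumed to be silent in the sorted cells, which was not tested. This floor was 551 for the wild-type array and 500.0 for the knockout array. A gene is summarised by its brightest row, taken by the average of both arrays. Where that row lay above the floor on the knockout array alone, its fold is the knockout value against the wild-type floor and is given as a lower bound. By this rule 5 of the 6 genes were higher by at least 2-fold in the knockout, 0 were lower, and the sixth, Mavs, has no fold. Ifih1, above the floor on the knockout array alone, could not come out lower by this rule. Over all 10859 genes above the floor on either array, 5.53% were at least 2-fold higher and 4.06% at least 2-fold lower. All 5 sensor genes were also past 8-fold, against 0.571% of all genes, but this cut was not among the planned ones. With the floor at the 99th percentile of receptor rows, the lower bounds of Ddx58, Ifih1 and Dhx58 fell short of 8-fold. With all rows of a gene averaged, Ddx60 alone stayed past it, at 3.99 on the log2 scale. The median log2 difference (knockout minus wild type) of the 5 sensor genes was 3.87, with the bound of Ifih1 included, while the median over all genes was -0.03. With the dimmest row of each gene in place of the brightest, Ddx60 and Zbp1 alone passed 2-fold, 2 of the 6 genes, since the dimmest rows of the others lay below both floors or, for Dhx58, gave a lower bound of 1.23-fold. In bulk RNA such as this, a different number of cells of a type and a different amount of RNA per cell cannot be told apart.

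**Figure D1:**
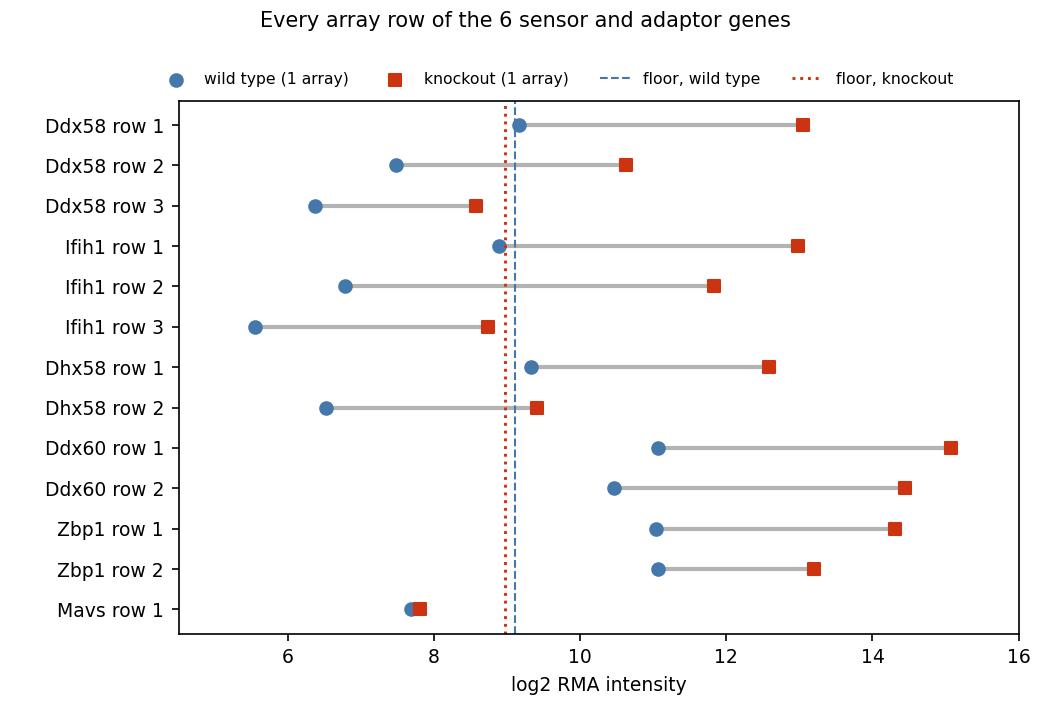
Log2 RMA intensity (horizontal axis) of each of the 13 array rows of the 6 genes, with the wild-type array as blue circles, the knockout array as red squares, and the detection floor of each array as a vertical line. Rows of a gene are numbered from the brightest. In all 13 rows the knockout value lies to the right, by 0.12 for Mavs and by 2.14 to 5.05 for the others.

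Of the RIG-I-like receptors, Ddx58 (gene ID 230073) had 3 rows. Its brightest row (MM9, chromosome 4 from 40170463 to 40186858) read an intensity of 574 on the wild-type array and 8510 on the knockout array, which is 9.17 and 13.05 on the log2 scale and a 14.8-fold higher level. The wild-type value lay only 0.06 above its floor on the log2 scale, so this fold rests on a wild-type level next to background, and with the floor at the 99th percentile of receptor rows the difference became a lower bound of 2.87. The row from 40150809 to 40167633 read 179 and 1576, below the wild-type floor, which bounds the knockout at least 2.86-fold higher. The remaining row, from 40174091 to 40186858, read 82.7 and 382, below both floors. Of the 3 rows, 1 gives a fold measured on both arrays, 1 a bound in the same direction, and 1 no fold.

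Ifih1 (gene ID 71586, chromosome 2) was not above background in the wild type in any of its 3 rows. The brightest row, from 62435504 to 62484210, read 474 on the wild-type array and 8082 on the knockout array, at least 14.7-fold higher, or 2.79 as a lower bound on the log2 scale with the stricter floor. The row from 62471643 to 62484217 read 110 and 3642, at least 6.61-fold higher. The row from 62446306 to 62484217 read 46.7 and 429, below both floors. Ifih1 is thus a gene seen above background on the knockout array alone, in 2 of 3 rows.

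Dhx58 (gene ID 80861, chromosome 11), which encodes LGP2, read 642 on the wild-type array and 6112 on the knockout array in its brightest row, from 100556197 to 100565495. That is 9.33 and 12.58 on the log2 scale, a 9.52-fold higher level. The wild-type value lay 0.22 above its floor, and with the stricter floor at the 99th percentile of receptor rows the difference became a lower bound of 2.39. Its short row, from 100564073 to 100565585, read 92.1 and 681 and gives only a bound of at least 1.23-fold. Taken as read, with no floor, the short row differed by 2.89 and the brightest by 3.25 on the log2 scale.

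Ddx60 (gene ID 234311) was above the floor on both arrays, and its rows gave nearly the same difference. Both of its rows span chromosome 8 from 64406885 to 64448502. One read 2134 on the wild-type array and 34386 on the knockout array, 16.1-fold higher, and the other 1417 and 22286, 15.7-fold higher. Both arrays lay well above their floors, by 1.36 or more on the log2 scale in the wild type. The knockout value of 15.07 on the log2 scale was within 1 unit of the highest value on that array, 15.84, where differences can be compressed.

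Zbp1 (gene ID 58203, chromosome 2), the Z-nucleic acid sensor gene, was also above the floor on both arrays in both of its rows. The row with the higher mean, from 173032113 to 173044393, read 2100 on the wild-type array and 20366 on the knockout array, 9.70-fold higher. The row from 173039236 to 173044391 read 2150 and 9452, 4.40-fold higher. Both rows place the knockout above the wild type, and the size of the Zbp1 difference depends on the row, at 3.28 or 2.14 on the log2 scale.

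Mavs (gene ID 228607), the shared adaptor gene, had a single row, on chromosome 2 from 131059802 to 131073760. It read 206 on the wild-type array and 224 on the knockout array, or 7.69 and 7.81 on the log2 scale. Both values lay below their floors, by 1.42 and 1.16, so no fold is given and a change of Mavs was not measurable with this row. Its reading above 36.9, the level of the row of 5000 random-sequence probes on both arrays, does not place it above the receptor rows.

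Across the 13 rows, 6 were above the floor on both arrays, 4 on the knockout array alone and 3 on neither. In the knockout 9 of the 10 rows above a floor were higher by at least 2-fold, against 6.14% of all transcript rows above a floor. The 4 rows above the knockout floor alone could not come out lower by this rule. The rows above both floors differed by 2.14 to 4.01 on the log2 scale. Rows of one gene share the RNA and are not replicates. As read, with no floor and so with rows that carry no fold, all 13 were higher in the knockout, against 48.4% of all 44170 transcript rows, and 12 were past 4-fold, against 1.37% of all rows. The scatter of the 2 arrays places the 5 sensor genes far from the diagonal and Mavs on it.

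**Figure D2:**
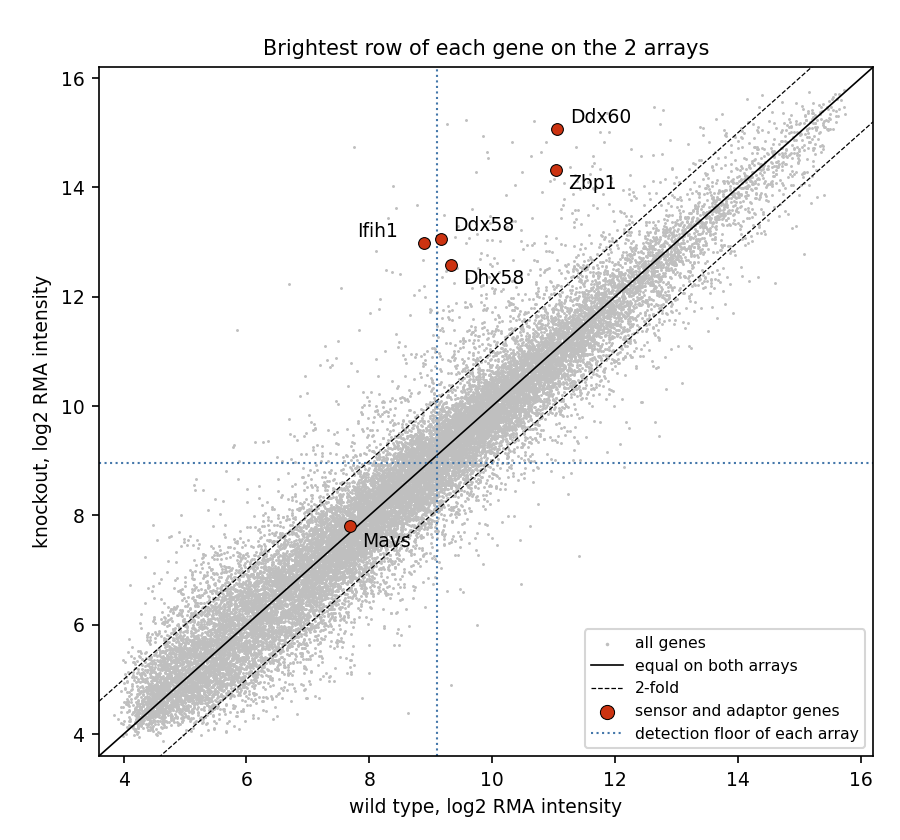
Log2 RMA intensity on the wild-type array (horizontal axis) and the knockout array (vertical axis) of the brightest row of each of the 24203 genes (grey), with the 6 sensor and adaptor genes in red. The solid line marks equal values, the dashed lines 2-fold, and the dotted lines the floors of 9.11 (wild type) and 8.97 (knockout); 5 red points lie above the upper dashed line and Mavs lies near the solid line below both floors.

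Markers of other marrow cell types were above the floor on both arrays beside those of LT-HSCs. Of 10 LT-HSC markers, 4 exceeded the wild-type floor and 5 the knockout floor, Kit and Ly6a among them, while Procr and Slamf1 were below both floors. All 7 neutrophil markers were above the floor on both arrays, and they summed to an intensity of 147206 in wild-type cells and 178148 in knockout cells. The 7 monocyte and macrophage markers summed to 14500 and 17202, with 6 and 7 above the floor, and only Fcgr1 was past 2-fold. The 5 plasmacytoid dendritic markers summed to 7594 and 8338, with 3 and 4 above the floor and Ccr9 below both floors. The 6 erythroid markers summed to 57594 and 46105. The 5 B lineage markers summed to 11260 and 1925, with 4 and 2 above the floor and Cd79a below both floors. Several neutrophil markers read near the top of the arrays, where differences can be compressed. The part of these cell types in the sensor gene differences was not tested.

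Among the 9242 genes above the floor on both arrays, ordered by difference from the highest, Ddx60 ranked 10, Ddx58 14, Zbp1 30 and Dhx58 33. Ddx60 differed by 4.01 and Ddx58 by 3.89, with the Ifih1 bound at 3.87, and Zbp1 and Dhx58 differed by 3.28 and 3.25. Rows of one gene, which share the RNA samples, varied in their differences with a pooled SD of 0.37 over the 2896 genes with at least 2 rows above both floors. Ddx60 and Ddx58, and likewise Zbp1 and Dhx58, differ by less than that spread. The spread holds no variation between arrays or animals, so with 1 array per group no order of the sensor genes can be read. With all rows of a gene averaged, Ddx58 had a lower bound of 1.64 and Zbp1 a difference of 2.71. By likeness of the difference alone, over these 2 arrays and with the 6 genes themselves left out, the genes nearest to Ddx58 were AW112010 (3.85), Gbp2 (3.84) and Ms4a4c (3.94). Nearest to Ddx60 were Herc6 (3.96), Casp4 (3.95) and Ms4a4c. Slfn9 (3.26) and Gm9572 (3.26) were among the nearest to both Dhx58 and Zbp1, joined by Ncoa7 (3.22) for Dhx58 and AA467197 (3.33) for Zbp1.

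The wider pathway held genes with high differences and genes with differences near 0. In 4 lists of 58 other genes of RNA sensing and its outputs, 56 were measured and 44 lay above the floor on either array, of which 10 were higher by at least 2-fold in the knockout and 0 lower. That is 22.7% of those above the floor, beside 5.53% of all genes. The lists were chosen with earlier results of these data known, so their shares are a description and no independent support. The highest of the 10 above both floors was Eif2ak2 at 3.11, which differs from Dhx58 at 3.25 by less than the 0.37 spread between rows, and Irf7 had a lower bound of 2.93.

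Of the 22 genes of MAVS signalling, 17 exceeded the floor, and the median difference was 0.56. Of those 17, 6 were higher by at least 2-fold, or 35.3%, beside 5.53% of all genes, and 0 were lower. The higher genes were Irf7, Zc3hav1, Azi2, Tank, Tbk1 and Ripk1. Irf7, the interferon-inducible factor that amplifies interferon gene transcription, read 424 on the wild-type array and 4210 on the knockout array and was at least 7.63-fold higher, although its other row, above both floors, differed by 1.16. Zc3hav1, which encodes the zinc-finger antiviral protein ZAP, read 552 and 3368 and was 6.10-fold higher, with its wild-type value at the floor. Azi2, a TBK1 adaptor gene, read 587 and 3463, 5.90-fold higher, with its wild-type value near the floor. Only 1 of the 3 Azi2 rows was above both floors, and the lowest difference among its rows as read was 1.18. Tank, another adaptor gene of the kinase, read 2226 and 12402, 5.57-fold higher. All 6 Tank rows were above both floors, with differences of 2.12 to 2.78. Tbk1, the kinase gene itself, read 900 and 3836, 4.26-fold higher, with its other row at 1.12. The ubiquitin ligase gene Trim25, which acts on RIG-I, differed by only 0.35, and Irf3, the factor that responds first downstream of MAVS, lay below both floors at 163 and 117.

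Of the 8 ZBP1 partners and Z-nucleic acid binding genes, 5 exceeded the floor. Of those 5, 3 were higher by at least 2-fold, or 60%, beside 5.53% of all genes. Ripk1 is counted both here and in MAVS signalling, so the shares of these lists are not separate. The median of the list was 1.10, which became 0.32 with the median row of each array as floor and 0.31 with no floor. Mlkl, which encodes the membrane-permeabilising effector of necroptosis, read 1208 and 9921 and was 8.21-fold higher, with its rows at 2.61 and 3.04. Ripk1, the kinase gene shared by death and inflammatory signalling, was 2.34-fold higher in the 1 of its 3 rows above both floors. The lowest difference among the Ripk1 rows as read was 0.17. Casp8, the caspase gene that restrains necroptosis, was 2.15-fold higher. Ripk3, which encodes the direct ZBP1 partner, read 552 and 686, differing by 0.32 from a wild-type value at the floor. Adar, whose long protein form also carries a Z-binding domain, read 5421 and 6732 in its brightest row, a difference of 0.31, but its other row above both floors differed by 1.58. Fadd, Casp6 and Ticam1 were below both floors.

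Other RNA sensors and double-stranded RNA binding genes mostly read nearly alike on both arrays. Of 15 measured, 12 exceeded the floor, with a median of 0.05, which became -0.13 with a stricter floor. Of those 12, 1 was higher by at least 2-fold, or 8.33%, near the 5.53% of all genes. That gene was Eif2ak2, which encodes the kinase PKR, a sensor of double-stranded RNA that halts translation, and it read 2463 on the wild-type array and 21239 on the knockout array, 8.62-fold higher. The endosomal receptor genes Tlr3 and Tlr7 exceeded only the knockout floor and were higher by at least 1.37-fold and 1.69-fold. The 5 DEAD and DEAH box helicase genes of this list above the floor, Dhx9, Dhx15, Ddx1, Ddx3x and Ddx21, differed by -0.54 to 0.10, beside 3.25 to 4.01 for Dhx58, Ddx58 and Ddx60.

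Of 13 measured genes that restrain RNA sensing, 11 exceeded the floor, 1 was higher by at least 2-fold, 0 were lower, and the median was 0.10. That 1 gene is 9.09% of those above the floor, near the 5.53% of all genes. The higher gene was Cyld, a deubiquitinase that removes ubiquitin chains from RIG-I, which read 652 and 3060, 4.69-fold higher, although its other row above both floors differed by 0.78. Rnf125, a ligase gene that targets RIG-I for degradation, and Nlrx1, a mitochondrial protein gene described as an inhibitor of MAVS, differed by -0.12 and 0.07.

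**Figure D3:**
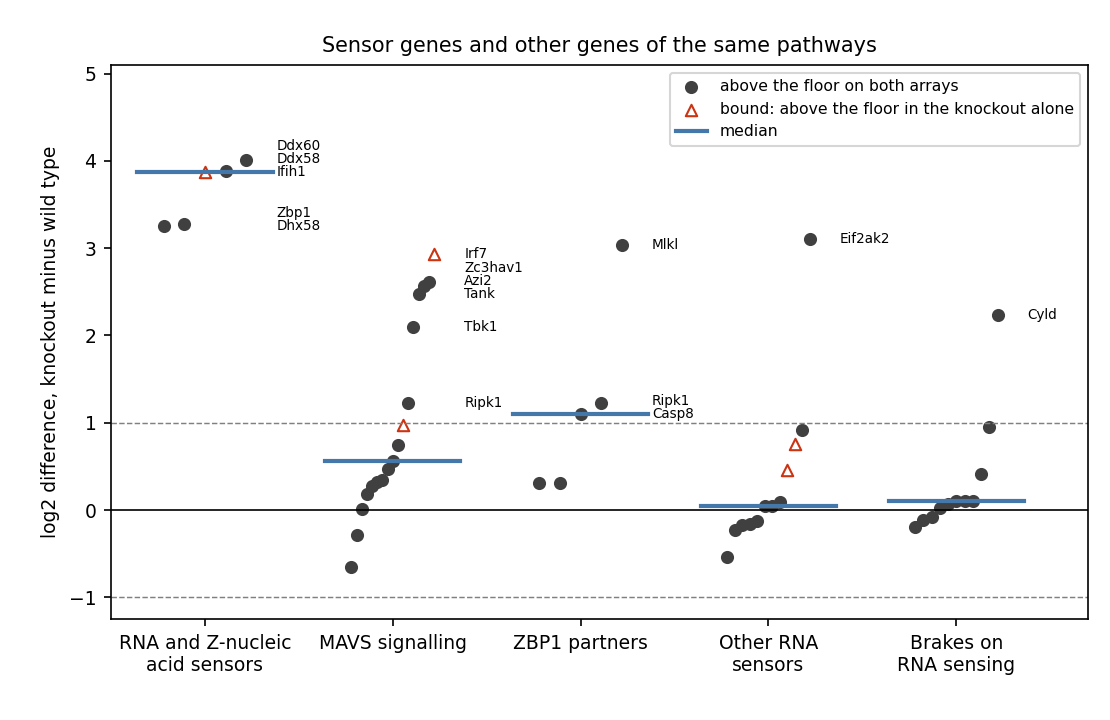
Difference in log2 RMA intensity, knockout minus wild type (vertical axis), for the sensor genes and for the genes of 4 pathway lists that lay above a detection floor, 1 point per gene. Open triangles are lower bounds for genes above the floor in the knockout alone, blue lines are medians, dashed lines mark 2-fold, and genes past 2-fold are named; the 5 sensor genes lie from 3.25 to 4.01, and the highest points of the other lists are Eif2ak2 at 3.11, Mlkl at 3.04 and the Irf7 bound at 2.93.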

How the data were processed

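Per the submitters' processing notes, the authors summarised each array by RMA, with no version given. Per the file headers, the deposited value of each transcript row is an intensity, on a linear scale, and 44155 of 44171 rows combine 3 probes. RMA as generally defined equalises the arrays, so differences are relative to other genes. The sources used here do not say which arrays were normalized together. The number of arrays limits the precision. Positions are those of the MM9 annotation in the files, with the counting base not stated. The deposited series-wide table holds the same intensities, with medians of 273 and 271 and log2 gaps of at most 1.28e-06.

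Intensities were put on the log2 scale without further normalization (Python 3.11.15, pandas 2.3.3). Of 44170 transcript rows, 41886 carry a gene ID, of which 39057 matched a RefSeq table of GRCm38.p6 used for symbols. The lists hold 2 genes, Usp18 and Dhx36, not analysed here, and 1 cell marker is not reported here. Calculations were tested on simulated data, with changes planted only in genes whose mean level lay above the floors. Recovery of a change from a wild-type level at or below the floor was not tested. The sensor genes, lists and rules were chosen with earlier results of these data known. The text names every row of the 6 genes, from each list up to 5 genes per direction with a difference or bound of at least 1, 6 anchor genes, cell markers, and the 3 genes nearest in difference to each sensor gene above both floors. Other genes were named after their values were seen. Promoter sequences are from RefSeq (GRCm38.p6). Alternatives were other floors, the mean or the dimmest row of a gene, loess centring with a span of 0.3 (statsmodels 0.14.6), the series-wide table, and folds of 1.5 and 3.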

Additional observations from a re-analysis of the deposited data

How the results depend on the processing

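Values below are log2 differences, knockout minus wild type, or counts of genes. The 5 sensor genes stayed at least 2-fold higher under all other floors, loess centring, averaged rows, the series-wide table, and at 1.5-fold and 3-fold. With the floor at the 99th percentile of receptor rows, Ddx58, Ifih1 and Dhx58 became bounds of 2.87, 2.79 and 2.39, genes at least 2-fold lower numbered 291, and the median of other RNA sensors turned to -0.13. With all rows averaged, Ddx58, Ifih1 and Dhx58 became bounds of 1.64, 2.08 and 1.89, Zbp1 was 2.71, the lower genes numbered 238, and 0 of the genes that restrain sensing were higher. With the dimmest row of each gene, an alternative added after seeing the data, 2 of the 6 genes were past 2-fold, Dhx58 was a bound of 0.30 and Zbp1 was 2.14, the lower genes numbered 225, and 0 restraining genes were higher.

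With no floor, 1411 genes were higher and 1435 lower, 2 restraining genes and 3 other RNA sensors were higher, and the median of ZBP1 partners was 0.31. When the median row of each array served as floor, that median was 0.32, and 3 other RNA sensors were higher. At 1.5-fold, 1257 genes were higher and 1339 lower, with 2 restraining genes and 3 other RNA sensors higher. At 3-fold, 281 genes were higher and 84 lower, and 1 ZBP1 partner was higher. The floor, the row or the threshold was the only change in each case, and no further cause was tested. Loess centring and the series-wide table moved none of these values past the 0.37 spread between rows or the 1.5-fold limit on counts. No paired analysis was possible because each group has 1 array, and none could be left out. Signal over background limits Mavs, Ifih1 and the wild-type level of Ddx58 most.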

Other observations

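The genes flanking the sensor genes on the chromosome were read as a description of their surroundings, chosen after the sensor values were seen. On the MM9 positions of the files, the nearest named gene on each side of the 6 genes gave 12 flanking genes, 8 above the floor on either array, of which 2 were higher by at least 2-fold in the knockout and 0 lower, beside 5.53% higher and 4.06% lower over all genes above a floor. Gca, which encodes the calcium-binding protein grancalcin of granulocytes, begins 18183 bases from the Ifih1 rows and was at least 3.39-fold higher, with log2 readings of 8.11 in the wild type, below the floor, and 10.87 in the knockout. The uncharacterised 4930512H18Rik, 5254 bases from the Ddx60 rows, read 6.95 and 10.54, at least 2.71-fold higher.

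On the other sides the values differed. Kat2a, an acetyltransferase gene 476 bases from the Dhx58 rows, was above the floor in the wild type alone, at 9.91, and read 8.65 in the knockout, at least 1.93-fold lower, beside the 9.52-fold higher Dhx58. Aco1 and Topors, on either side of Ddx58, differed by 0.11 and -0.08. Pck1, beside Zbp1, differed by -0.01, and Ap5s1 and Pank2, on either side of Mavs, differed by -0.06 and -0.40.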
